A study of Mus musculus with 6 samples.

Results

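The 10 circadian clock genes Per1, Per2, Per3, Cry1, Cry2, Arntl, Clock, Nr1d1, Nr1d2 and Dbp were described in RNA-seq data of freshly sorted muscle stem cells (MuSCs). They were chosen by symbol as core members of the clock, and all 10 were found among the 22706 genes of the deposited table. MuSCs are the cells from which skeletal muscle is rebuilt after injury. The study compared 3 genotypes, with 2 libraries each. Control mice were wild type. In mdx mice a mutation of Dmd removes functional dystrophin, which makes them a model of Duchenne muscular dystrophy. Sirt6mKO/mdx mice carry the mdx mutation together with Sirt6 alleles flanked by loxP sites, which a Cre recombinase driven by the Pax7 promoter removes throughout the skeletal muscle lineage, so that the deletion is not limited to adult MuSCs. The labels give C57BL/6 as the strain of all 3 groups, while the methods name C57BL/10ScSn-Dmdmdx/J as the origin of the mdx allele. According to the methods, MuSCs were sorted as Sca1-/CD45-/CD31- cells positive for Integrin-a7 and CD34, or by a Pax7-linked ZsGreen or YFP reporter, and the sources do not state which sort was used for which library. Mice were kept under a controlled dark and light cycle, and the time of day at which muscle was taken is not given in the sources used here.

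The mammalian clock is a transcriptional feedback loop found in nearly every cell. A dimer of CLOCK and the Arntl product BMAL1 binds E-box motifs and activates the Per and Cry genes, whose proteins gather in a complex that represses the dimer again, in a cycle that takes about a day. In a second loop the same dimer activates Nr1d1 and Nr1d2, which encode the nuclear receptors REV-ERBα and REV-ERBβ, and these repress Arntl. Dbp encodes an output factor that acts through D-box motifs. Transcripts of most of these genes rise and fall over the day, and the part of the time of sampling in the differences given here was not tested. Outside the loop, Per1 and Per2 also respond quickly to signals such as cAMP, glucocorticoids and serum.

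The motifs of the loop are shown where they lie before the start of a clock gene. RefSeq promoter windows of GRCm38.p6, each of 300 bases with 250 bases before the start, were matched for 9 of the 10 genes, which had 13 windows in all. No window was matched for Per2. The E-box CACGTG was found in 2 of these 13 windows and in 7.15% of all 32851 windows, and its variant CACGTT, read as AACGTG on the other strand, in 3 of 13 and in 4.68%. The D-box, searched as TTATGTAA and TTACGTAA, was found in 1 of 13 windows and in 1.06% of all windows. Both strands were searched. The stretches that hold these matches are printed 5′ to 3′ on the strand of the gene, with the motif in capitals.

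Per1, E-box, chr11:69098756-69098815, + strand: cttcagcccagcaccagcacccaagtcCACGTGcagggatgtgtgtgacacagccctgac
Cry1, variant E-box then E-box, chr10:85185082-85185160, - strand: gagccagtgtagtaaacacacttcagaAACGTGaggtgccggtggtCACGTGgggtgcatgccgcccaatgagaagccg
Cry2, variant E-box, chr2:92434203-92434262, - strand: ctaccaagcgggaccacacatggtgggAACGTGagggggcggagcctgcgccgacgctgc
Nr1d1, variant E-box, chr11:98775378-98775432, - strand: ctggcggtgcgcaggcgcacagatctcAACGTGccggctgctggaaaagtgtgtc
Per3, D-box at 2 places, chr4:151044789-151044897, - strand: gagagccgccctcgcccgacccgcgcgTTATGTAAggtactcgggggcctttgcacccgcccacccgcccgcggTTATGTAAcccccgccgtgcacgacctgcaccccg

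Counted from 0 at the start, the E-box began at base -166 in Per1 and at base -60 in Cry1, where the variant began at base -79. The variant began at base -166 in Cry2 and at base -28 in Nr1d1, and the D-boxes of Per3 began at bases -205 and -158. By the GENCODE annotation the Per1 stretch lies in an intron of a longer Per1 transcript, the Per3 stretch lies in an intron of Camta1, and the other 3 overlap no gene. No window of Clock, Nr1d2 or Dbp held any of these motifs. The cAMP response element TGACGTCA was found in 0 of 13 windows and in 1.79% of all windows, whereas its core TGACG, which the full element contains, was found in 4 of 13 windows, of Per1, Cry1 and Cry2, and in 20.81% of all windows. The sequence TAGGTCA of the element that REV-ERB and ROR proteins bind was found in 1 of 13 windows, that of Arntl at base 30 after the start, and in 2.61% of all windows.

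Depth and identity of the libraries set limits on these comparisons. The libraries held approximately 4397632 to 9745218 reads, and the 10 most abundant genes took 11.7% to 22.9% of the values in control and mdx libraries but 32.6% and 30.0% in the libraries labelled Sirt6mKO/mdx. Sirt6 had normalized read counts of 41 and 32 (control), 33 and 40 (mdx) and 37 and 30 (labelled Sirt6mKO/mdx), and did not differ between the last 2 groups beyond the spread between libraries (log2 fold change -0.12 ± 0.50 (SE), limma adjusted p = 0.912). The paper reports highly efficient deletion of Sirt6 by genotyping PCR in MuSCs of Sirt6mKO mice without the mdx mutation. It also measured Sirt6 by RT-qPCR in Sirt6mKO/mdx MuSCs. The values here rest on approximately 16 to 51 reads per library and cover the whole gene, of which only some exons are deleted. The libraries labelled Sirt6mKO/mdx, here also the third group, are therefore called by their label. All 8 MuSC markers were above 0 in every library, with summed values between 16648 and 22545, although 1 of them, Sdc4, had 7692 and 6224 (control), 1100 and 1049 (mdx) and 2753 and 2822 (the third group) and was called in all 3 comparisons (log2 fold changes -2.69 in mdx against control, 1.37 in Sirt6mKO/mdx against mdx and -1.31 in Sirt6mKO/mdx against control). The part of this in the clock gene values was not tested. Control libraries held 16772 and 12950 for Xist against 7 to 34 in the other 4, and 3 and 8 for the Y-linked Ddx3y against 1024 to 1767. The pattern of the control libraries goes against the study's methods, which describe male mice, and sex and genotype cannot be told apart in comparisons with control. In sorted populations measured in bulk, fewer cells of a type and less RNA per cell cannot be told apart either.

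To see how the clock genes stood in dystrophic MuSCs, mdx libraries were compared with control. Of the 5 period and cryptochrome genes, the repressors of the loop, 3 were called lower in mdx. Per1, Per2 and Cry1 had log2 fold changes of -2.25, -2.23 and -1.28, which is 4.77-, 4.71- and 2.43-fold lower, and no clock gene was called higher. A gene was called when its limma adjusted p over all 15915 genes tested was at most 0.05 and its fold change at least 2. By this rule 3 of the 10 clock genes were called, all lower, beside 14.2% of all genes tested called in either direction and 7.34% called lower. All 10 fold changes were below 0, with a median of -0.75 beside 0.00 over all genes, and 8 of the 10 genes had both mdx libraries below both control libraries, which held for 28.3% of all genes tested.

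Per1, the light- and hormone-responsive period gene (ENSMUSG00000020893, GRCm38 chr11:69095217-69109960), had normalized read counts of 1666 and 986 (control) against 222 and 324 (mdx). Both mdx libraries lay far below both control libraries. The log2 fold change was -2.25 ± 0.29 (SE, n = 2 per group; 95% interval -2.87 to -1.63; limma adjusted p = 0.000104). Its paralog Per2, the second repressor of the PER family (ENSMUSG00000055866, chr1:91415984-91459330), had 344 and 120 (control) against 45 and 40 (mdx). Control libraries differed from each other more than mdx libraries did, but the groups did not overlap. For Per2 the log2 fold change was -2.23 ± 0.42 (95% interval -3.12 to -1.35; limma adjusted p = 0.00205), and it was -1.48 without the control library at 344 and -2.99 without the one at 120. The call of Per2 was lost with no filter on low values and with one prior variance for all genes (limma adjusted p = 0.0535 and 0.079).

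Per3, a period gene that is not needed for the feedback loop itself (ENSMUSG00000028957, chr4:151003652-151044665), had 151 and 134 (control) against 64 and 109 (mdx). Its groups were apart, yet its log2 fold change of -0.76 ± 0.35 did not pass the test (limma adjusted p = 0.155). The spread of its mdx libraries was the larger one.

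Cry1, one of both cryptochrome repressors (ENSMUSG00000020038, chr10:85131702-85185054), had 376 and 185 (control) against 113 and 103 (mdx). The log2 fold change was -1.28 ± 0.34 (95% interval -2.00 to -0.56; limma adjusted p = 0.0181). This call depended on single libraries: without the control library at 376 the log2 fold change was -0.77 (limma adjusted p = 0.186), and without either mdx library the adjusted p was 0.108 or 0.115. It was also lost with no filter on low values and with one prior variance (limma adjusted p = 0.0983 and 0.132). Cry2, its paralog (ENSMUSG00000068742, chr2:92403646-92434043), had 139 and 106 (control) against 67 and 77 (mdx), a log2 fold change of -0.75 ± 0.33 that did not pass (limma adjusted p = 0.14). Both mdx values of Cry2 lay below both control values. Of the exon bases of Cry2, 4.67% are shared with an opposite-strand gene, D930015M05Rik, and the counting is not stated to use strand.

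In the activator limb neither gene was called. Clock, whose product is the DNA-binding partner of BMAL1 (ENSMUSG00000029238, chr5:76212177-76304548), had 731 and 943 (control) against 948 and 722 (mdx). The groups overlapped fully, and the interval of the log2 fold change, -0.54 to 0.53, did not reach a 2-fold difference in either direction. Arntl, the gene of BMAL1 (ENSMUSG00000055116, chr7:113207465-113314122), had 314 and 428 (control) against 291 and 277 (mdx). Its groups were apart by a small margin, and the log2 fold change of -0.37 ± 0.26 did not pass (limma adjusted p = 0.364).

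Among the receptors of the second loop, Nr1d1 (ENSMUSG00000020889, chr11:98767932-98775333) had 378 and 433 (control) against 259 and 176 (mdx). Its adjusted p was within the limit (limma, 0.0272) but its log2 fold change of -0.92 ± 0.26 was short of 2-fold, so it was not called; without the mdx library at 259 it was called at -1.20. Nr1d1 shares 8.55% of its exon bases with Thra on the opposite strand. Nr1d2, its paralog (ENSMUSG00000021775, chr14:18204054-18239127), had 520 and 490 (control) against 474 and 281 (mdx), a log2 fold change of -0.47 ± 0.27 (limma adjusted p = 0.266). Dbp, the output factor (ENSMUSG00000059824, chr7:45705088-45710155), gave no clear reading: its values were 82 and 28 (control) against 66 and 24 (mdx). Its libraries differed more within groups than between them, its approximate reads were only 31 to 101 per library, and its log2 fold change of -0.26 ± 0.57 had an interval from -1.48 to 0.96. Dbp also shares 18.0% of its exon bases with Sphk2 on the opposite strand.

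**Figure D1:**
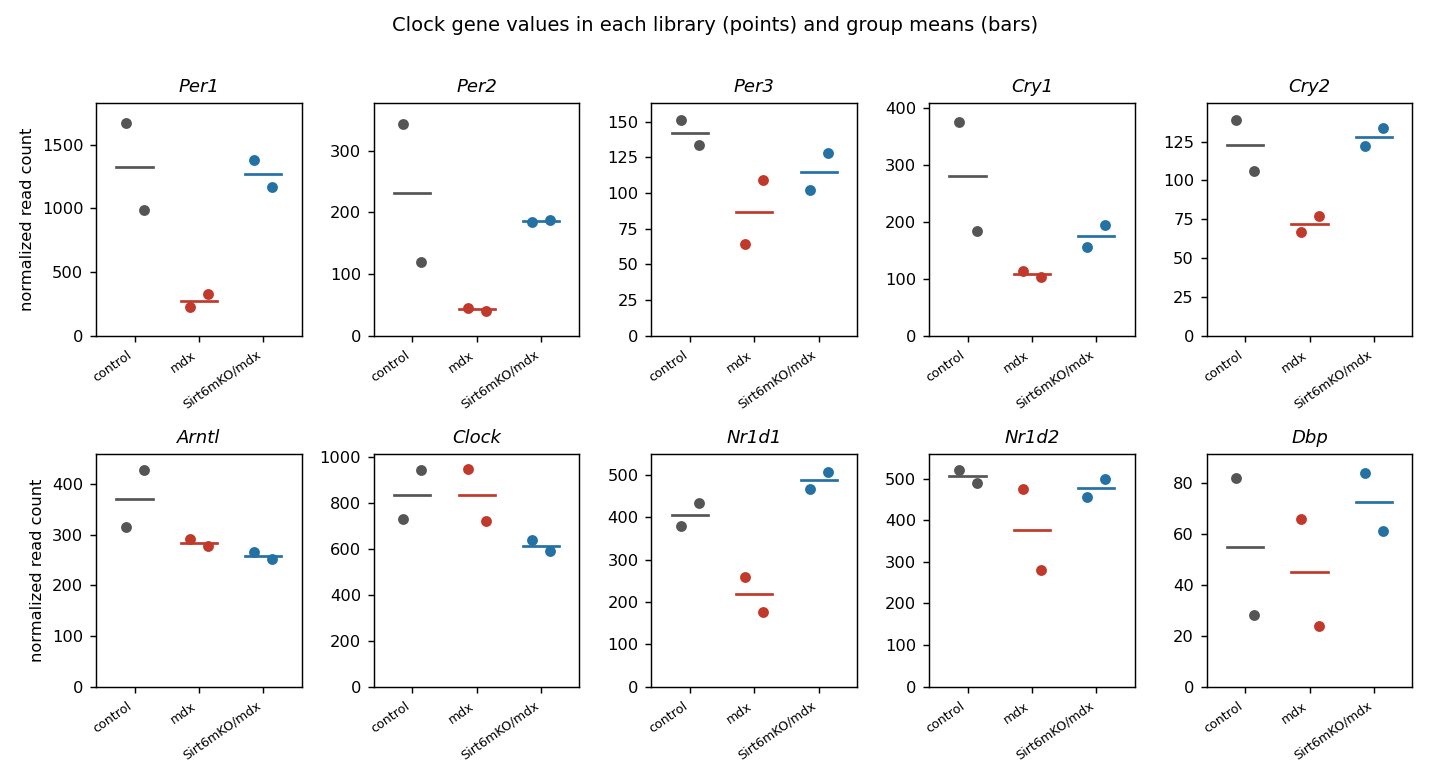
Normalized read counts of the 10 clock genes on linear axes that start at 0, with a point for each library and a horizontal bar for each group mean (2 libraries per group). Per1 and Per2 sit lowest in both mdx libraries, at 222 and 324 and at 45 and 40, whereas the libraries of Dbp spread as widely within groups as between them.

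The next comparison asked how the clock genes stood when the mdx mutation was combined with the Sirt6mKO alleles. Relative to mdx, the libraries labelled Sirt6mKO/mdx had higher Per1, Per2 and Nr1d1, by 2.24, 2.11 and 1.18 on the log2 scale or 4.71-, 4.31- and 2.27-fold. This comparison uses the same mdx libraries as the previous one, so both move together with any deviation of those libraries. Of the 10 clock genes 3 were called, all higher, beside 8.17% of all genes tested called in either direction and 5.62% called higher. The median log2 fold change was 0.76 beside 0.02 over all genes. Both libraries labelled Sirt6mKO/mdx lay above both mdx libraries for 5 of the 10 genes, Per1, Per2, Cry1, Cry2 and Nr1d1 (28.8% of all genes tested), and below them for 2, Arntl and Clock (27.2% of all genes tested).

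In the repressor limb, the libraries labelled Sirt6mKO/mdx held 1377 and 1165 for Per1, against 222 and 324 in mdx. The log2 fold change was 2.24 ± 0.29 (95% interval 1.62 to 2.85; limma adjusted p = 0.000232). Per2 was at 184 and 188, against 45 and 40, with very little spread in either group. Its log2 fold change was 2.11 ± 0.42 (95% interval 1.22 to 2.99; limma adjusted p = 0.00605). Leaving out any 1 of the 4 libraries left the Per2 fold change between 2.02 and 2.19, but its adjusted p then lay above 0.05, as it did with no filter (limma, 0.111) and with one prior variance (0.152). Cry2 was at 122 and 134 against 67 and 77, and Cry1 at 156 and 195 against 113 and 103. Neither gene passed, with log2 fold changes of 0.82 ± 0.33 for Cry2 (limma adjusted p = 0.138) and 0.69 ± 0.34 for Cry1 (limma adjusted p = 0.223), although the groups did not overlap for either. Per3 was at 102 and 128 against 64 and 109, groups that overlapped (log2 fold change 0.45 ± 0.35).

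For Nr1d1 the libraries labelled Sirt6mKO/mdx held 467 and 506, above the 259 and 176 of mdx and above the 378 and 433 of control. Against mdx its log2 fold change was 1.18 ± 0.26 (95% interval 0.62 to 1.75; limma adjusted p = 0.0125). The call was lost without the mdx library at 176, when the log2 fold change was 0.91, and without either library labelled Sirt6mKO/mdx, with no filter (limma adjusted p = 0.0994) and with one prior variance (limma adjusted p = 0.161). Nr1d2 was at 455 and 499 against 474 and 281, and its groups overlapped (log2 fold change 0.38 ± 0.27). Dbp was at 84 and 61 against 66 and 24, with a log2 fold change of 0.83 ± 0.57 that did not pass (limma adjusted p = 0.399). Over the libraries left out, the log2 fold change of Dbp ranged from 0.12 to 1.54.

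The 2 activators did not share this direction. Clock was at 638 and 592 against 948 and 722 in mdx, and Arntl at 265 and 251 against 291 and 277. Both sets of libraries were apart, but the log2 fold changes of -0.43 ± 0.25 for Clock and -0.14 ± 0.26 for Arntl did not pass (limma adjusted p = 0.31 and 0.787).

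The scaling of the libraries bears on this comparison. With the libraries set to the same total of values, the median log2 fold change of all genes moved from 0.02 to -0.58, and the calls over all genes went from 895 higher and 405 lower to 479 higher and 2932 lower. Under that scaling Per1 was still called at 1.61 and Per2 at 1.49, Nr1d1 was not called at 0.56, Clock was called lower at -1.06, and Per3 and Nr1d2 turned to -0.17 and -0.24. Relative to the median of all genes at -0.58, the log2 values of Per1, Per2 and Nr1d1 remained above and that of Clock below.

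**Figure D2:**
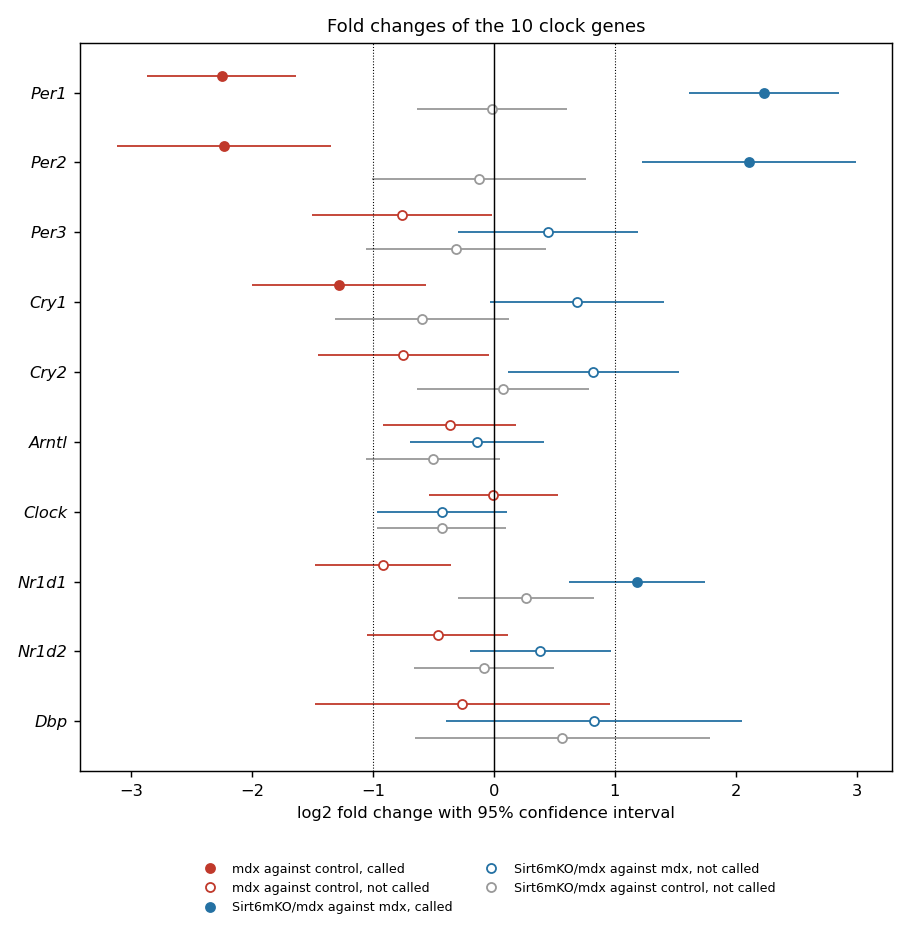
Log2 fold changes of the 10 clock genes with 95% confidence intervals from limma in the 3 comparisons, where filled points are called genes, open points are not called, and dotted lines mark a 2-fold difference. With the libraries scaled as deposited, Per1 and Per2 lie beyond -2 in mdx against control and beyond 2 in Sirt6mKO/mdx against mdx, and near 0 in Sirt6mKO/mdx against control.

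The libraries labelled Sirt6mKO/mdx were also set against control, from which they differ by both alleles and in the sex-linked genes given above. By the same rule 0 of the 10 clock genes were called, beside 7.87% of all genes tested called and 2.68% called lower. In limma 0 of the 10 had an unadjusted p under 0.05, beside 24.1% of all genes tested. With the libraries scaled as deposited, Per1 differed from control by -0.02 on the log2 scale with an interval from -0.64 to 0.60. Under the same scaling Per2 differed by -0.13 with an interval from -1.01 to 0.76. A difference of up to 1.5-fold in Per1 and 2-fold in Per2 thus lies within these intervals. Cry1 was the lowest at -0.59 (interval -1.32 to 0.13), and Dbp the highest at 0.57 (interval -0.66 to 1.79). Nr1d1 was the single gene with both libraries above both control libraries (26.3% of all genes tested), at 0.26 with an interval from -0.30 to 0.83.

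Per3, Arntl and Clock had both libraries below both control libraries, 3 of 10 genes where 25.3% of all genes tested had the same order. Their log2 fold changes were -0.31, -0.51 and -0.43, and the smallest unadjusted p of the 10 genes was that of Arntl in limma (0.0703). Set to the same total of values, Cry1, Arntl and Clock were called lower at -1.20, -1.11 and -1.04, beside 16.9% of all genes called lower under that scaling and a median of all genes of -0.58, and voom weights called the same number of clock genes.

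Ratios between clock genes within a library do not depend on the scaling of that library, and they were compared as values with no test. By permutation, 2 libraries against 2 cannot reach a p of 0.05, and limma was not fitted to the ratios. The log2 ratio of Per1 to Arntl was 2.40 and 1.20 (control), -0.39 and 0.23 (mdx) and 2.37 and 2.21 (labelled Sirt6mKO/mdx). Both mdx libraries were thus below the other 4, and the same order held for the ratio of Per2 to Arntl, which was 0.13 and -1.83 (control), -2.67 and -2.76 (mdx) and -0.52 and -0.42 (the third group). The ratio of Nr1d1, which represses Arntl, to Arntl itself was 0.27 and 0.02 (control), -0.17 and -0.65 (mdx) and 0.82 and 1.01 (the third group). Here the 3 groups did not overlap at all.

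The other ratios were 3 of paralogs and 2 to Arntl. The log2 ratio of Per1 to Per2 ranged from 2.27 to 3.03 over the 6 libraries and its group means were 2.65 ± 0.53, 2.63 ± 0.50 and 2.76 ± 0.19 (SD, n = 2), which lay within 1 SD of each other. The ratio of Nr1d1 to Nr1d2 was -0.46 and -0.18 (control), -0.87 and -0.67 (mdx) and 0.04 and 0.02 (the third group), again without overlap. Clock to Arntl was 1.22 and 1.14 (control), 1.70 and 1.38 (mdx) and 1.26 and 1.23 (the third group), where only the mdx libraries stood above the rest. Cry1 to Cry2 was 1.43 and 0.80 (control), 0.75 and 0.42 (mdx) and 0.35 and 0.54 (the third group), with the control libraries above the rest and the other groups overlapping. For Dbp to Arntl they spanned -3.89 to -1.65 with the control values overlapping both other groups.

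**Figure D3:**
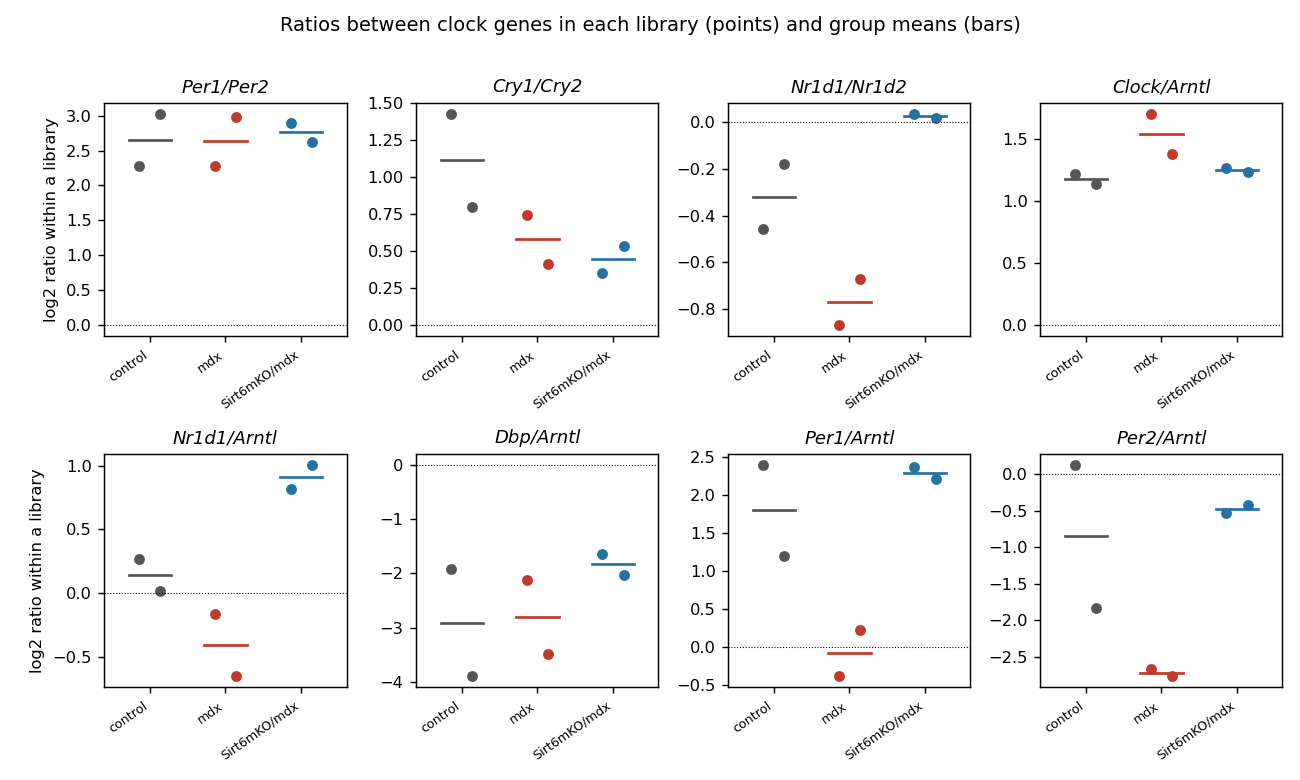
Log2 ratios of 8 pairs of clock genes within each library, with a point for each library and a bar for each group mean. The ratios of Per1 and Per2 to Arntl are lowest in both mdx libraries, the ratios of Nr1d1 to Arntl and to Nr1d2 are highest in both libraries labelled Sirt6mKO/mdx, and the ratio of Per1 to Per2 stays between 2.27 and 3.03.

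Levels of different genes were compared per kb of exon. Over all 6 libraries Per1 was the most abundant at 170 normalized reads per kb, in percentile 91.8 of 15750 genes, followed by Nr1d1 at 120 and Nr1d2 at 83.8. Cry1 at 56.3, Clock at 55.5 and Arntl at 40.5 formed the middle, and Per2 at 26.2, Dbp at 19.2, Cry2 at 17.0 and Per3 at 11.9 were the lowest, Per3 in percentile 32.0. Several neighbours in this order, such as Cry1 and Clock or Dbp and Cry2, differed by less than the spread of their libraries. The order changed with the group: Per1 led in control at 235 per kb and in the third group at 226, but in mdx it was at 48.5, below Nr1d1 at 70.7, Nr1d2 at 69.8 and Clock at 60.8. Per2 dropped from 39.6 per kb in control to 7.26 in mdx, the lowest mdx level of the 10 genes, and was at 31.8 in the third group.

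Other genes of the clock, its inputs and its outputs were read from the same fit. Of 26 listed genes 25 were tested, and Rorb, with a mean under 5, was not. In mdx against control 7 of the 25 were called lower and 0 higher (median log2 fold change -0.64), beside 7.34% of all genes tested called lower. In Sirt6mKO/mdx against mdx 6 were called higher and 0 lower (median 0.34), beside 5.62% of all genes tested called higher. With the libraries set to the same total of values the second comparison had 4 called higher and 4 lower, beside 18.4% of all genes called lower under that scaling. These 2 comparisons share the mdx libraries. Against control 1 gene, Bhlhe40, was called lower in the third group, beside 2.68% of all genes tested. With equal totals or voom weights 11 were called lower and 0 higher, beside 16.9% of all genes called lower with equal totals. Nfil3, Rora, Csnk1d, Usp2 and Crem were among them (-1.26, -1.26, -1.47, -1.01 and -1.16 with equal totals). With one prior variance for all genes, 0 of the 25 were called in the second comparison, where the adjusted p of Nfil3, Sik1, Usp2 and Crem was 0.054, 0.0689, 0.0697 and 0.0833 (limma).

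By role, the D-box repressor Nfil3, which opposes Dbp, had the largest change of the list in both mdx comparisons. Its normalized read counts were 1491 and 1236 (control), 93 and 66 (mdx) and 857 and 864 (labelled Sirt6mKO/mdx). That is a log2 fold change of -4.10 ± 0.26 in mdx (limma adjusted p = 1.27e-07) and of 3.44 in the third group against mdx. Tef and Hlf, D-box activators related to Dbp, did not pass in any comparison. Among repressors of the CLOCK and BMAL1 dimer, Bhlhe40, the gene of DEC1, had 724 and 1225 (control), 117 and 163 (mdx) and 385 and 417 (the third group). The third group thus lay between the others, with log2 fold changes of 1.53 against mdx and -1.23 ± 0.29 against control (limma adjusted p = 0.0167). Both calls of the third group were lost with no filter, with one prior variance and without either of its own libraries, the one against mdx also without mdx replicate 1, with voom weights and with equal totals, where it was 0.90, and the one against control also without control replicate 2, where it was -0.85. Its paralog Bhlhe41, Ciart and Cipc were not called.

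Among the activators of this list, Rora, a receptor that activates Arntl through the element that REV-ERB proteins occupy, had 1789 and 1945 (control), 933 and 722 (mdx) and 1297 and 1085 (the third group). The 3 groups did not overlap. Rora was called lower in mdx (log2 fold change -1.18), a call lost without mdx replicate 2 and with one prior variance for all genes (limma adjusted p = 0.0636 and 0.0855), and was not called in the third group against mdx (0.53, limma adjusted p = 0.205), where its sign turned with equal totals (-0.096) and voom weights (-0.098). Npas2, which can stand in for Clock, and Arntl2 were not called.

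Among genes whose products modify PER and CRY proteins, Usp2, a deubiquitinase, had 607 and 557 (control), 81 and 67 (mdx) and 580 and 330 (the third group). Csnk1d, the casein kinase that marks PER proteins for degradation, was at 2923 and 2284, 623 and 685, and 1658 and 1221 in the same order. Both were called lower in mdx (log2 fold changes -2.96 and -1.98) and higher in the third group against mdx (2.55 and 1.12). The other 5 genes read for this role, which were Csnk1e, Fbxl21, Btrc, Fbxw11 and Gsk3b, were not called. The call of Csnk1d in the second comparison was lost without any 1 of its 4 libraries, with no filter, one prior variance or voom weights, and with equal totals, where its log2 fold change was 0.49.

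Input genes carry signals to the clock. Sik1, a kinase that limits the response of the clock to light, had 4834 and 3998 (control), 434 and 582 (mdx) and 4011 and 2934 (the third group). Crem, a cAMP-responsive factor, was at 817 and 521, 100 and 80, and 528 and 372. Both were called lower in mdx, at -3.13 and -2.85, and higher in the third group against mdx, at 2.77 and 2.30, while Creb1 and Rasd1 were not called. None of the 4 output genes Wee1, Nampt, Tspo and Por was called in the 3 comparisons; by limma, 3 of the 4 had an unadjusted p under 0.05 in mdx against control, beside 31% of all genes tested, with Wee1 and Por at -0.83 and -0.68 and Tspo at 0.65, and Tspo in the third group against control was just short of 2-fold (0.99, limma adjusted p = 0.039).

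**Figure D4:**
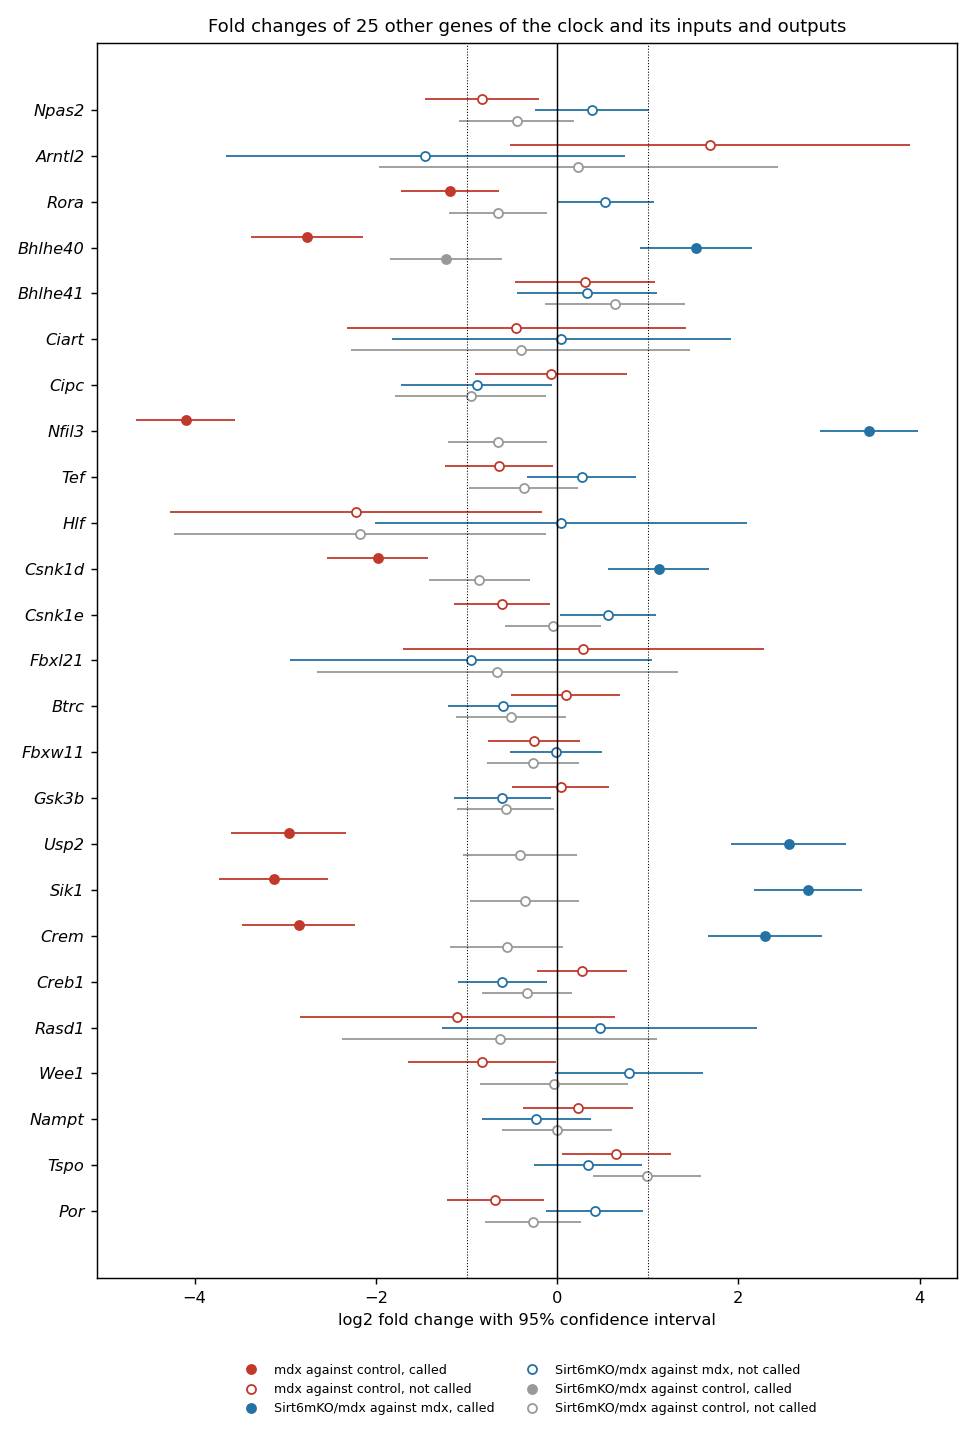
Log2 fold changes with 95% confidence intervals from limma of 25 other clock genes in list order, where filled points are called genes and dotted lines mark a 2-fold difference. Nfil3, Sik1, Usp2, Crem, Bhlhe40 and Csnk1d lie left of -1 in mdx against control and right of 1 in Sirt6mKO/mdx against mdx.

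Gene groups that respond quickly to stimulation or cell handling were read beside the clock genes. Of 20 immediate early and dissociation response genes, such as Fos, Jun and Egr1, 19 were called lower in mdx against control (median log2 fold change -2.89), beside 7.34% of all genes tested. In Sirt6mKO/mdx against mdx 19 of the 20 were called higher (median 2.73), beside 5.62% of all genes tested. The summed values of the 20 genes were 176333 and 198948 (control), 24088 and 27059 (mdx) and 137455 and 131541 (the third group). Both mdx libraries were at 12.8% and 14.4% of the control mean of this sum, while the summed values of the 10 clock genes were at 59.6% and 49.9% of theirs. In control libraries the largest parts of the first sum were Hspa1b (43503 and 48342), Dnajb1 (26187 and 36763) and Hspa1a (24741 and 25674). Per1 gave 1666 and 986 of the clock gene sums there. Of 10 glucocorticoid response genes, 7 were called lower in mdx (median -1.66), beside 7.34% of all genes tested. In the third group against mdx 8 of them were called higher (median 2.05), beside 5.62% of all genes tested. In the third group against control, 2 of the 20 immediate early and 1 of the 10 glucocorticoid genes were called lower, beside 2.68% of all genes tested. Of the glucocorticoid list, Zbtb16, called in both mdx comparisons, had 2133 and 775 (control), 39 and 120 (mdx) and 472 and 1009 (the third group), while Fkbp5 was called in neither of these. The part of these responses in the values of Per1, Per2 and the other clock genes was not tested.

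Markers of other cells were also read beside the clock genes. Summed values of 6 endothelial markers were 239 and 128 (control), 33 and 60 (mdx) and 109 and 175 (the third group), and those of 6 leukocyte markers were 77 to 181 in all libraries, far under the sums of the MuSC markers. Each library had 5 of the 6 endothelial genes above 0, but not the same 5, with Pecam1, Cdh5 and Tie1 above 0 in all of them, and 3 to 6 of the 6 leukocyte genes. By single genes, Pecam1, Kdr and Cd68 were called lower and Lyz2 higher in mdx against control, and Lyz2 was called higher in the third group against control. Summed myofibre markers were 5940 and 6761 (control), 4421 and 1332 (mdx) and 9175 and 3982 (the third group), so mdx and the third group overlapped. Of the 6 myofibre genes, Acta1, Ckm and Myh1 were called lower in mdx against control (log2 fold changes -1.71, -1.64 and -2.38), and Acta1 and Myh1 were called higher in the third group against mdx (1.55 and 1.79), the direction of Per1 and Per2. Summed values of 6 fibro-adipogenic genes, which include collagens that MuSCs also transcribe, were 20764 and 27478, 38695 and 31903, and 20959 and 28701 in the same order. Most of each sum came from Col3a1, at 16458 and 22798, 30817 and 26928, and 15579 and 24533. Ly6a and Col1a1 were called higher in mdx and Col1a1 lower in the third group against mdx. Ly6a had 3 and 9, 79 and 21, and 65 and 15, highest in replicate 1 of mdx and of the third group. Smooth muscle and pericyte markers summed to 1050 and 1904 (control), 3123 and 2534 (mdx) and 1394 and 1846 (the third group), most of it from Acta2, which was called higher in mdx (log2 fold change 1.18, limma adjusted p = 0.0266). The other 4 genes were not called and summed to 243 and 300 (control), 286 and 200 (mdx) and 470 and 288 (the third group), with overlap. Schwann cell markers summed to between 23 and 73 and erythroid markers to between 6 and 84, of which Hbb-bs was called higher in the third group against mdx (3.39). The proliferation genes Mki67 and Top2a summed to 69 and 141 (control), 481 and 917 (mdx) and 170 and 290 (the third group), opposite to Per1 and Per2. The part of any of these in the clock gene values was not tested.

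**Figure D5:**
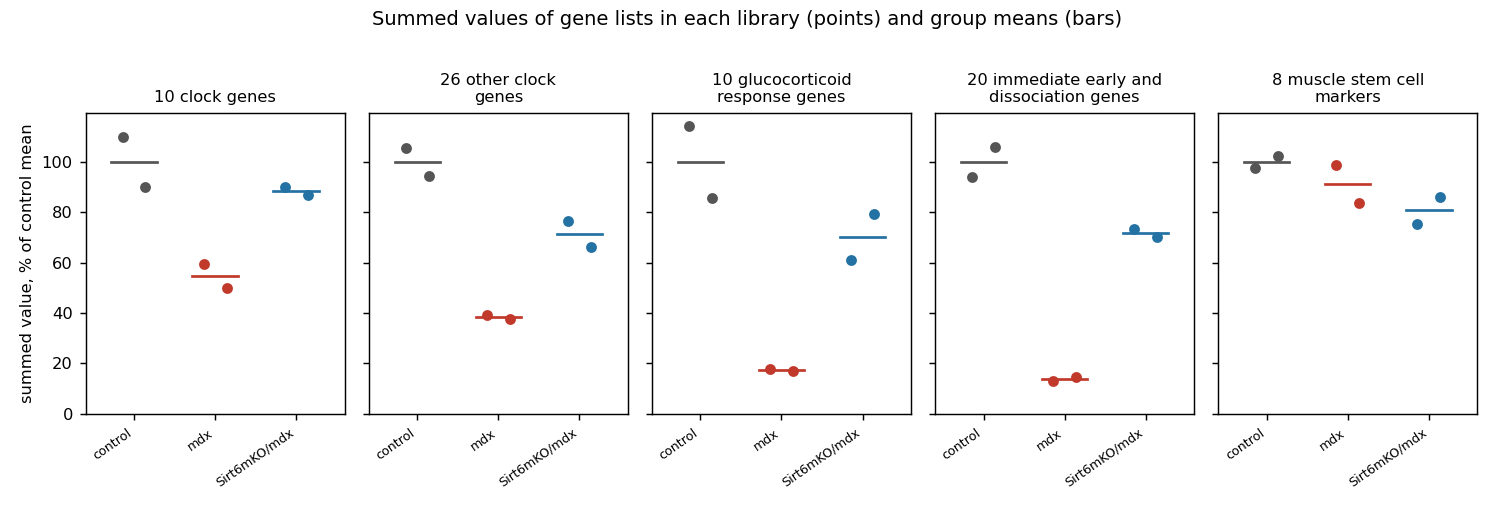
Summed normalized read counts of 5 gene lists in each library as a percent of the control mean, with a point for each library and a bar for each group mean. The immediate early and dissociation genes are at 12.8% and 14.4% in the mdx libraries and the clock genes at 59.6% and 49.9%, while the sum of the MuSC markers, of which Sdc4 was called lower in mdx, ranges from 75.5% to 102.3% over all libraries.

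Genes whose pattern over the 6 libraries was most like that of each called clock gene were listed among 9656 candidates, as a description with no test, since 6 libraries of 3 groups share their group differences. For Per1 the closest were Tbx6, Elmod3 and Plk3, with Pearson's r on the log2 scale of 0.999, 0.998 and 0.996. For Per2 they were Mau2, Wsb1 and Ints6, for Cry1 Shc1, Med20 and Etohd2, and for Nr1d1 Mypn, Ccm2 and Gabarapl1, with r between 0.991 and 0.996. Candidates with r above 0.95 numbered 280 for Per1, 153 for Per2, 50 for Cry1 and 46 for Nr1d1. Within the 10 genes, r was 0.96 between Per1 and Per2, 0.98 between Per1 and Cry2 and 0.91 between Per2 and Cry1. For Clock r was -0.51 to Per1 and -0.61 to Cry2 but 0.74 to Arntl, while its log2 fold change in mdx against control was -0.01.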

How the data were processed

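RNA of sorted MuSCs was measured in 6 libraries of 3 groups, assigned from the sample labels. The authors removed ribosomal RNA and sequenced on an Ion Torrent instrument. Reads were trimmed (Reaper), aligned to GRCm38 (STAR) and assigned to Ensembl genes (featureCounts), with the use of strand not stated. The authors deposited whole numbers per gene that follow division of the counts by 1 size factor per library and rounding (a score here, called normalized read count in the text). Size factors of 0.537 to 1.53 recovered from the skipped or doubled whole numbers gave the approximate reads. The authors used DESeq2, which needs raw counts, so log2(value + 1) of all 6 libraries was fitted by limma 3.58.1 (R 4.3.3) with a trended prior variance, over 15915 genes with a mean of at least 5. Fold changes on this scale understate changes of low values. Adjusted p-values are two-sided, Benjamini-Hochberg over all genes tested. In the main fit the p-values rest on a variance pooled over the 3 groups of 2 libraries and drawn toward the trend over all genes. They do not measure the spread of the 2 compared groups alone. The limits for a call and the mean filter follow the methods of the study. The fit was tested on simulated data. Levels per kb use exon lengths of GENCODE release M21, which held 98.5% of the gene identifiers. A pair of genes was left out of the list of other clock genes and is not reported here. The members and gene lists were chosen with earlier results of these data known. All 10 clock genes were named, called genes of the other lists could be named, and for each called clock gene the 3 genes most like it with a mean of at least 50; non-called genes of a role and the list examples Fos, Jun, Egr1, Fkbp5 and Zbtb16 were named after their values were seen. Alternatives were a replicate block, other pseudocounts, filters, prior variances, voom weights, 3 other scalings and leaving out each library. Groups of 2 libraries are too few for a test of single outlying libraries.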

Additional observations from a re-analysis of the deposited data

How the results depend on the processing

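The 3 clock genes called in mdx against control became 1 with no filter and 1 with one prior variance for all genes, Per1 in both, and 2 to 3 over the libraries left out. In Sirt6mKO/mdx against mdx the 3 clock genes became 1 with no filter and 0 with one prior variance, under which 0 of all genes were called, and 1 to 3 over the libraries left out, with 1 without mdx replicate 2 or either Sirt6mKO/mdx replicate. The 6 other clock genes became 4, 0 and 4 to 6 in the same order, and with voom weights or equal totals 4 were called higher and 4 lower. In Sirt6mKO/mdx against control the 0 clock genes became 3 with voom weights or equal totals and stayed at 0 over the libraries left out, and the 1 other clock gene became 0 with no filter or one prior variance, 11 with voom weights or equal totals, 2 with upper quartile or median ratio scaling, and 0 to 2 over the libraries left out. The log2 ratio of Per2 to Arntl differed by 2.15 between Sirt6mKO/mdx and mdx with a pseudocount of 5, against 2.24.

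Signs turned in values that were not called. In mdx against control Clock (-0.01) was 0.0169 with voom weights and 0.0175 with equal totals and -0.20 to 0.19 over the libraries left out (0.18 without control replicate 2), and Dbp was -1.02 to 0.50 (0.45 without mdx replicate 2). In Sirt6mKO/mdx against mdx voom weights and equal totals gave -0.16 and -0.17 for Per3 and -0.25 and -0.24 for Nr1d2. Against control they gave -0.54 and -0.53 for Cry2, -0.34 and -0.34 for Nr1d1 and -0.073 and -0.028 for Dbp. In that comparison Per1 was 0.0103 and 0.0052 with upper quartile and median ratio scaling, and over the libraries left out Per1 was -0.40 to 0.36 (0.10 without Sirt6mKO/mdx replicate 2), Per2 -0.88 to 0.63, Cry2 -0.12 to 0.27 and Dbp -0.19 to 1.32. The cause was not tested.

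Of the fold changes of clock genes under alternatives, 487 kept their direction and side of the threshold, 21 lost and 9 gained a call, and 23 turned sign. Same-numbered libraries did not deviate together over the genes tested (r of -0.128, 0.119 and 0.009). With 2 libraries per group this cannot settle whether the numbers pair the samples. With a replicate block the counts stayed at 3, 3 and 0 clock genes and 7, 6 and 1 other clock genes. The lowest approximate reads in any library were those of Dbp (31 to 101) and Per2 (51 to 228).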
